A study of Rattus norvegicus with 16 samples.

Results

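The Dlk1-Dio3 imprinted locus carries one of the largest miRNA clusters of the rat genome, and its miRNAs were followed here in ageing hindlimb muscle. Members were all array miRNAs named rno-miR- plus 1 of 39 stems of the locus, on any arm. This gave 74 miRNA names out of 677 on the array, measured by 173 probes and 1480 spots per array. The rule goes by name and uses no measured value, although the list of stems was drawn up with earlier results of these data known. All 39 stems were on the array. There were 35 unstarred names, 31 starred names, 4 ending in -5p and 4 ending in -3p. Total RNA from muscle of male Fischer 344 rats was hybridised to 16 single-colour (Cy3) arrays, 1 per sample. The 4 groups of 4 arrays were EDL of old rats (25 to 28 months), EDL of young rats (6 to 7 months), soleus of old rats (25 to 28 months) and soleus of young rats (6 to 7 months). EDL (extensor digitorum longus) is a mainly fast-twitch muscle and soleus a mainly slow-twitch one. All rats were of 1 strain and sex, and the labels record no genetic change or drug in any group. They do not state that each array was a separate animal, so the p-values cover the spread between these 16 samples and no more, and that spread may be technical. In whole muscle, fewer cells of a type and less RNA per cell cannot be told apart.

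The locus is imprinted: protein genes such as Dlk1, Rtl1 and Dio3 are read from the paternal chromosome, and long noncoding RNAs such as Meg3, Rian and Mirg from the maternal one. The miRNAs are processed from the maternal transcripts and load into Argonaute complexes, where the seed at the 5′ end pairs with target mRNAs. In sheep a mutation in this locus causes the callipyge phenotype of muscle overgrowth, and in mouse the miRNAs opposite Rtl1, among them miR-127, direct cleavage of the Rtl1 transcript. Many miRNAs of the cluster are abundant in brain and placenta.

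In the RefSeq annotation of GRCr8 all 39 stems had an entry on the plus strand of chromosome 6, within 281.755 kb (chr6:134298084-134579838). Grouped by position as known for mouse, 4 hairpins lay between Dlk1 and Rtl1, 5 opposite Rtl1, 2 in Rian and 28 in Mirg, the last within 36.394 kb. The 2 members that were detected both came from Mirg, with hairpins 28.988 kb apart. Their mature sequences (RefSeq, GRCr8) are shown with the arm opposite each of them, because only 1 arm of each hairpin gave signal. Sequences run 5′ to 3′ and capitals mark the seed, bases 2 to 8. The first name is RefSeq's and the name in parentheses the array's.
rno-miR-494-3p (miR-494): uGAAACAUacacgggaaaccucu
rno-miR-494-5p (miR-494*): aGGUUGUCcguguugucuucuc
rno-miR-409a-3p (miR-409-3p): aAUGUUGCucggugaacccc
rno-miR-409a-5p (miR-409-5p): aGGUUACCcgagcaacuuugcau
The seeds of both detected arms occurred in no other rat mature miRNA of the RefSeq table, so neither shares its seed with another member.

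The 39 stems had 72 RefSeq mature forms with 68 different seeds, so the cluster is a set of mostly unlike seeds and not a single seed family. A seed was shared 3 times, by 7 matures in all. The sharing groups, with miR-494-5p above as the third of the first, are shown because these are the members that could be read as families.
rno-miR-410-5p (miR-410*): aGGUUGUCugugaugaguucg
rno-miR-496-5p (miR-496*): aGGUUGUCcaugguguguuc
rno-miR-381-3p (miR-381): uAUACAAGggcaagcucu
rno-miR-539-3p (miR-539*): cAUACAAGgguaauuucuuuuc
rno-miR-376b-5p (miR-376b-5p): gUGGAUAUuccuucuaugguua
rno-miR-376c-5p (miR-376c*): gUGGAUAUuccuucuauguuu
None of these 7 matures was detected on any array. Their median processed signals over the 16 arrays were -0.50 for miR-494*, -3.03 for miR-410*, -1.41 for miR-496*, -2.33 for miR-381, -1.35 for miR-539*, 2.27 for miR-376b-5p and 2.48 for miR-376c*.

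Detection was read from 2 flags of the scanner software. A probe passed the first, well above background, on an array when over 0.5 of its spots were flagged, and a miRNA when any of its probes did. The second flag is the software's own call that a miRNA was detected. By the first flag 2 of 74 members (2.70%) were well above background on at least 1 array, miR-494 and miR-409-3p. Among the other 603 array miRNAs 142 (23.5%) were. The remaining 72 members were well above background on 0 of 16 arrays. By the second flag 3 members were detected on at least 1 array, with miR-127 as the addition, on old EDL 4 alone.

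Group by group, members well above background on 2 or more of 4 arrays numbered 2 in old EDL, 1 in young EDL, 2 in old soleus and 2 in young soleus. miR-494 was well above background on 4 of 4 arrays in every group. miR-409-3p was so on 3 of 4 arrays in old EDL, 1 of 4 in young EDL, 2 of 4 in old soleus and 3 of 4 in young soleus. The software called both detected on all 16 arrays, so young EDL had 2 detected members by that flag. Over single spots of both its probes, the share flagged for miR-494 was 55 of 76 in old EDL and 41 of 76 in young EDL. It was 38 of 74 in old soleus and 39 of 79 in young soleus. Its brighter probe was flagged on every spot used (39 of 39, 39 of 39, 38 of 38 and 39 of 39, in that order). The dimmer probe was flagged on 16 of 37, 2 of 37, 0 of 36 and 0 of 40. For miR-409-3p it was 45 of 79 in old EDL, 18 of 79 in young EDL, 39 of 79 in old soleus and 39 of 79 in young soleus. The number of flagged spots of miR-409-3p was thus lowest in young EDL, a description with no test. If every spot of at least 1 probe had to be flagged, members on 2 or more of 4 arrays numbered 2 in old soleus. In old EDL, young EDL and young soleus they numbered 1, miR-494.

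By position, the 8 names between Dlk1 and Rtl1 included 0 well above background, as did the 9 names opposite Rtl1 and the 3 names of Rian. The 54 names of Mirg included both detected members. The other 15 array names of the locus, from 8 stems that the rule leaves out, had 0 well above background. 1 of these, miR-667, was called detected by the software on old EDL 2 and 4, and was named after its value was seen. The second imprinted locus considered, H19/Igf2, had 3 of 4 names well above background on at least 1 array. On 2 or more of 4 arrays it had 3 in old EDL and 0 in young EDL, old soleus and young soleus. Of all 677 array names, 98 to 138 were well above background per array in old EDL and 83 to 112 in young EDL. In old soleus 61 to 84 were, and in young soleus 59 to 86. Its summed unscaled signal overlapped between old EDL (53.2 to 151.7) and young EDL (32.4 to 70.8), and a difference was not tested.

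Striated muscle markers were detected, which does not tell EDL from soleus. Of the 8 striated muscle names 6 were well above background, with summed unscaled signal of 47073 to 105066 on old EDL arrays, 27692 to 94137 on young EDL arrays, 22008 to 28733 on old soleus arrays and 19746 to 54195 on young soleus arrays. Of the 4 slow fibre names 1, miR-499, was well above background, and both miR-208b names never were. Their summed unscaled signal was 23.0 to 54.4 on old EDL arrays and 6.34 to 55.1 on young EDL arrays. It was 111 to 185 on old soleus arrays and 120 to 426 on young soleus arrays. Among 9 neural names 0 were well above background, and the summed signal of the neural names was at most 12.7 on any array. Leukocyte names had 4 of 6 well above background, endothelial 2 of 2, smooth muscle 2 of 4, fibroblast 4 of 5 and erythroid 1 of 4. The part of these other cell types in the members' signal was not tested.

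The 72 members that were never well above background lay mostly below the median of negative-control spots. Taking the brightest probe of a member on each array, their processed signal ran from -10.4 to 14.2 intensity units, and the median over members of each member's median was -1.02. The median was below 0 for 46 of the 72. Negative-control spots had medians of 7.53 to 12.2 per array, and 0 to 4 of the 72 lay above that median on any array. The lowest signal of any probe well above background was 18.6 to 28.5 per array, above the brightest of the 72 on each array (5.82 to 14.2). Of their 22303 spots 3 were flagged well above background, 1 each for miR-127 on young EDL 7, miR-341 on young EDL 10 and miR-380 on young soleus 10. A signal not well above background gives only a bound, and no fold is given for these members.

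**Figure D1:**
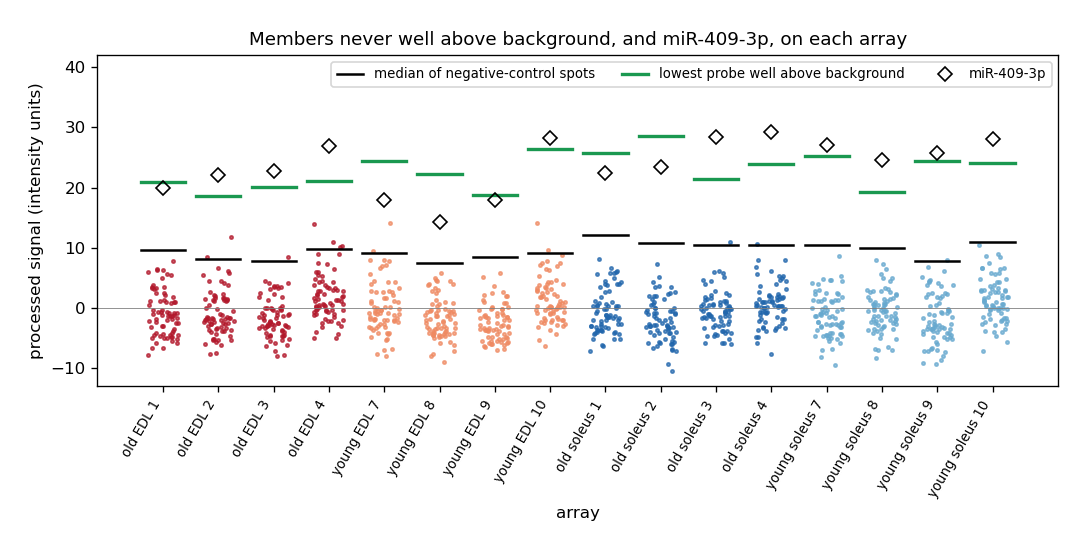
Processed signal (intensity units) of the 72 members never well above background, 1 point per member at its brightest probe, on each of the 16 arrays in the order old EDL, young EDL, old soleus, young soleus. Black lines are the median of negative-control spots, green lines the lowest probe well above background, and diamonds miR-409-3p; the points stay between -10.4 and 14.2 on every array, below all green lines.

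The brightest of these 72 members were chosen after their values were seen. One of them, miR-127, is the member that the software called detected on old EDL 4. miR-668, from Mirg, had a lowest, median and highest signal of 2.57, 8.10 and 10.997 over the 16 arrays. miR-127, which is opposite Rtl1, had 0.957, 5.43 and 14.2. Both mature forms, also from RefSeq, are given because they had the highest medians of the 72.
rno-miR-668 (miR-668): uGUCACUCggcucggcccacuacc
rno-miR-127-3p (miR-127): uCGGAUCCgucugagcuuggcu
The brightest probe of miR-127 read 6.35, 11.8, 3.67 and 14.1 on the old EDL arrays and 14.1, 4.52, 3.71 and 14.2 on the young EDL arrays. It averaged 8.96 ± 4.79 in old EDL, 9.14 ± 5.81 in young EDL, 2.76 ± 1.56 in old soleus and 5.36 ± 2.16 in young soleus (SD, n = 4 each). The highest values were on 4 EDL arrays, and the EDL and soleus arrays overlapped. Its second probe stayed at or under 4.32 on every array. The next in order by median were miR-154 (5.21), miR-329 (4.96), miR-433* (4.56), miR-337 (4.19), miR-299 (4.04), miR-136 (3.96), miR-369-5p (3.87) and miR-300-5p (3.51), with 0 flagged spots each.

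**Figure D2:**
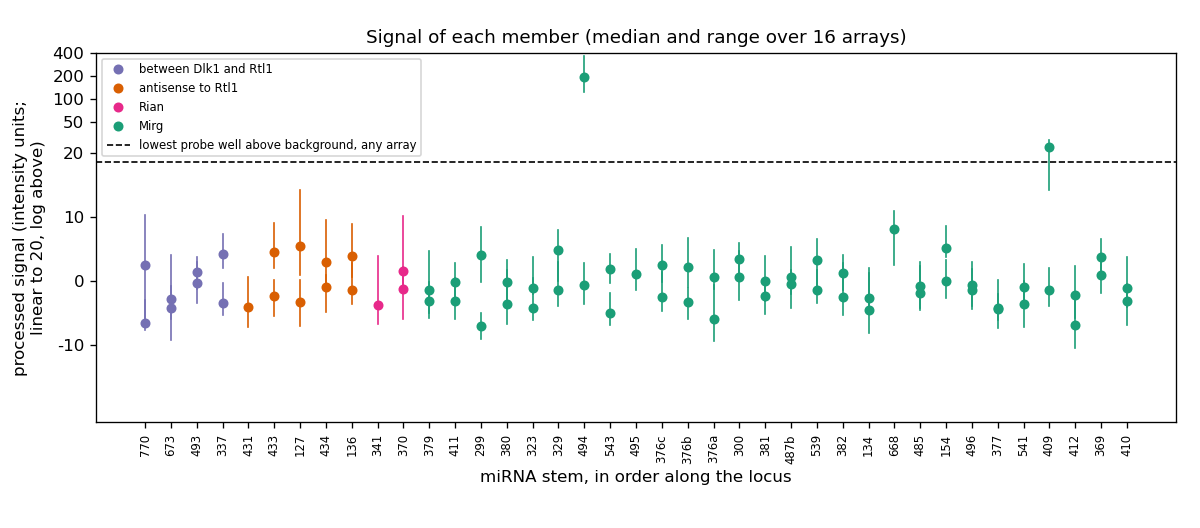
Processed signal (intensity units, linear to 20 and logarithmic above) of all 74 members, placed by stem in the order of the hairpins along the locus, with each arm as a point at its median and a line over its range on 16 arrays. Colours give the mouse-based position group; the medians of miR-494 and miR-409-3p alone lie above the dashed line, which marks the lowest probe well above background on any array.

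miR-494, which in mouse muscle cells targets the mitochondrial transcription factor gene Tfam, was the 1 member well above background on every array. It has 2 probes. The brighter (A_26_P00002855) read 233, 278, 209 and 366 intensity units on the old EDL arrays and 267, 223.3, 199.3 and 266 on the young EDL arrays. It read 181, 180, 184 and 190 on the old soleus arrays and 125, 139, 158 and 169 on the young soleus arrays. The 2 EDL groups overlapped, whereas every EDL array was above every soleus array, and every old soleus array was above every young soleus array. The means were 271.7 ± 69.3 in old EDL, 239.0 ± 33.4 in young EDL, 183.8 ± 4.66 in old soleus and 147.6 ± 19.9 in young soleus (SD, n = 4 each), before any scaling between arrays. The dimmer probe (A_26_P00002854) was well above background on old EDL 2 and 4 alone, at 18.6 and 30.4 units. It averaged 19.7 ± 7.41 in old EDL, 16.2 ± 3.74 in young EDL, 10.71 ± 0.746 in old soleus and 6.92 ± 2.80 in young soleus.

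miR-409-3p lay close to the limit of detection on every array. Its 3 probes gave means of 21.5 ± 3.20, 22.7 ± 3.07 and 18.6 ± 5.50 in old EDL and 17.7 ± 7.40, 19.1 ± 5.24 and 19.3 ± 6.12 in young EDL (SD, n = 4 each). They gave 25.6 ± 3.15, 25.5 ± 3.92 and 23.1 ± 2.31 in old soleus and 26.4 ± 1.45, 24.2 ± 2.69 and 21.0 ± 2.82 in young soleus. The first probe (A_26_P00001706) read 16.9, 22.0, 22.5 and 24.5 on the old EDL arrays and 17.9, 10.4, 14.7 and 27.8 on the young EDL arrays. It read 22.4, 23.5, 27.1 and 29.2 on the old soleus arrays and 27.1, 24.6, 25.8 and 27.9 on the young soleus arrays. Without scaling old and young overlapped within each muscle and the muscles overlapped at each age, and young EDL had the widest spread, with young EDL 10 above the other 3 young EDL arrays. Its opposite arm, miR-409-5p, had a median of -1.38, and the opposite arm of miR-494 one of -0.50.

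**Figure D3:**
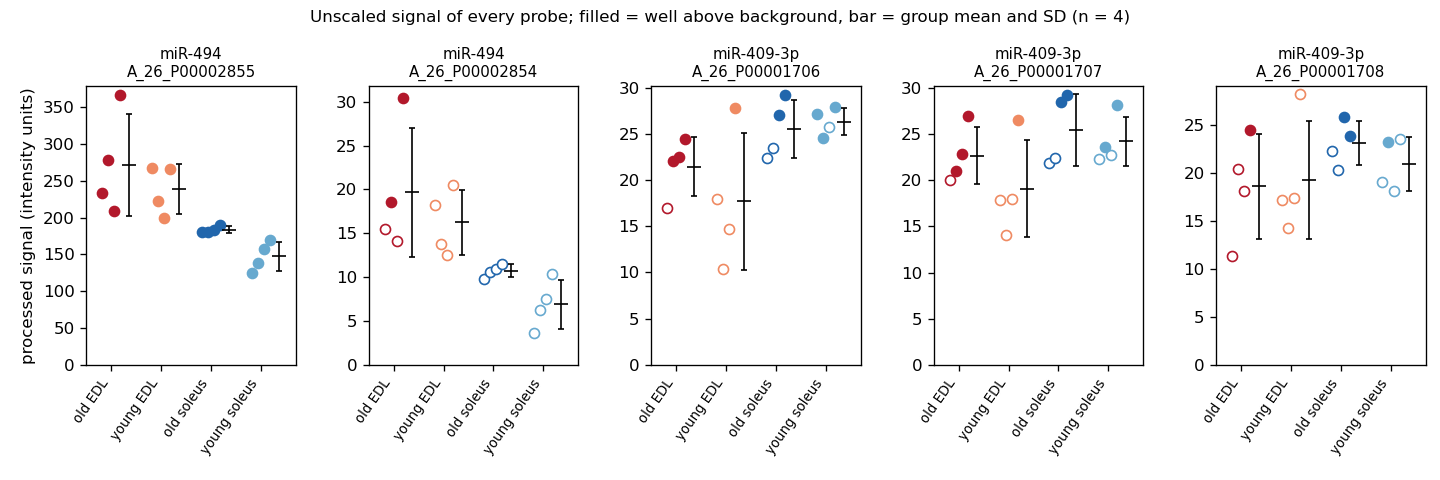
Unscaled processed signal (intensity units) of the 2 probes of miR-494 and the 3 probes of miR-409-3p, by group, with 1 point per array, filled where the probe was well above background, and the group mean and SD (n = 4) beside the points. miR-494 was filled on all 16 arrays at its brighter probe, and miR-409-3p moved across the limit of detection within each group.

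Array brightness differed between the muscles and bears on all values that cross them. The 75th percentile that served as divisor was, by log2, 1.69 higher in old EDL than in old soleus and 1.16 higher in young EDL than in young soleus. A labelling spike-in, dmr_285, was brighter 4.62-fold in old EDL than in old soleus and 3.87-fold in young EDL than in young soleus. All EDL arrays lay on 1 slide, old rats in one column and young rats in the other, and there age and column cannot be told apart. Old and young soleus arrays lay on 1 slide each, so slide and group cannot be told apart for age in soleus and for both comparisons of the muscles. In the tests each array was divided by its 75th percentile over probes well above background on all arrays of the fit, raised to a floor and put on the log2 scale. All miRNAs well above background on 4 or more arrays were then fitted with limma, at an adjusted p of 0.05 after Benjamini-Hochberg over the whole table. Both detected members were tested in every comparison, and the 72 others in none.

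With age in EDL, neither member passed. miR-494 stood, relative to the percentile, at 0.297, 0.257, 0.423 and 0.300 on the old EDL arrays and 0.252, 0.382, 0.656 and 0.278 on the young EDL arrays. The groups overlapped, and young EDL 9, the dimmest EDL array, held the highest value. The log2 difference, old minus young, was -0.22 (SE 0.30, 95% interval -0.91 to 0.48, limma adjusted p = 0.725). For miR-409-3p it was -0.11 (SE 0.40, interval -1.04 to 0.82, adjusted p = 0.857), with 3 of 4 old and 1 of 4 young arrays well above background. In this comparison 0 of the 2 members and 13.3% of 113 tested miRNAs were called, and 0 members against 25.7% of tested miRNAs had groups that did not overlap. Without young EDL 9 the differences turned to 0.01 for miR-494 and 0.19 for miR-409-3p, and without scaling to 0.16 and 0.15.

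With age in soleus, miR-494 was nearest to a call. Its scaled level was 0.457, 0.454, 0.413 and 0.483 on the old soleus arrays and 0.451, 0.296, 0.240 and 0.264 on the young soleus arrays. The groups overlapped through young soleus 7, whose value exceeded that of old soleus 3, while the other 3 young arrays were below every old one. The means were 0.452 ± 0.0290 in old soleus and 0.313 ± 0.0952 in young soleus (SD, n = 4 each), a log2 difference of 0.57 (SE 0.18, interval 0.15 to 0.997). With a limma unadjusted p of 0.0144 and an adjusted p of 0.0575 it did not pass. Without young soleus 7, the dimmest of the 16 arrays, it was called at 0.70 (limma adjusted p = 0.00321), and miR-409-3p was called as well, at 0.41 (limma adjusted p = 0.0303). In that smaller set 56.2% of tested miRNAs were called.

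In the full set of soleus arrays miR-409-3p differed by 0.20 with age (SE 0.27, interval -0.43 to 0.82, limma adjusted p = 0.586). Its scaled level ran from 0.0566 to 0.0741 in old soleus and from 0.0391 to 0.0982 in young soleus, so the young arrays spanned the old ones. Without scaling the difference was -0.05. Of tested miRNAs 12.5% of 80 were called in this comparison and 32.5% had groups that did not overlap, against 0 of 2 members on both counts. Over the scaling settings, miR-494 lay 0.60 above the median difference of all tested miRNAs. Dividing whole arrays moves a member and the median alike, so most of these settings could hardly change that value. With normexp background miR-494 lay 0.43 above the median, and with the brightness covariate 0.41. The unscaled signal of miR-494 had a ratio of 1.24, old over young soleus, at its brighter probe. The groups did not overlap there (two-sided exact permutation p = 0.0286, the smallest that 4 against 4 arrays allow; adjusted p = 0.114 over 20 such comparisons of the 5 probes).

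The age effect in EDL minus that in soleus was -0.70 for miR-494 (SE 0.33, interval -1.40 to 0.01, limma adjusted p = 0.486) and -0.19 for miR-409-3p (SE 0.45, interval -1.16 to 0.77, limma adjusted p = 0.820). Neither was called, against 1.74% of 115 tested miRNAs, and the intervals leave room for differences in either direction.

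Between the muscles, miR-409-3p was lower in EDL than in soleus relative to the array percentile, at both ages. Its scaled levels were 0.0133, 0.0129, 0.0259 and 0.0134 in old EDL against 0.0554, 0.0567, 0.0574 and 0.0730 in old soleus. In young EDL they were 0.0108, 0.0108, 0.0249 and 0.0190, against 0.0935, 0.0488, 0.0379 and 0.0415 in young soleus. The muscles did not overlap at either age, although 2 of the 4 young EDL values were at the floor and have no order. The log2 difference, EDL minus soleus, was -1.95 in old rats (SE 0.32, interval -2.63 to -1.26, limma adjusted p = 0.00013) and -1.75 in young rats (SE 0.32, interval -2.44 to -1.07, limma adjusted p = 0.000431). The size depended on the floor and the scaling, and the miRNA was well above background on 3 of 4 old EDL and 1 of 4 young EDL arrays. With a median floor it was -0.83 in old rats and -0.61 in young rats, still called (limma adjusted p = 0.00529 and 0.0335). The call was lost at both ages with normexp background (-1.08 in old rats and -0.46 in young rats), with the percentile over all probes (-0.77 and -0.51) and without scaling (-0.16 and -0.25). The limma adjusted p over these lost calls ran from 0.115 to 0.991. The unscaled fit kept a floor of 18.6 units and took another probe, A_26_P00001707. That probe was under the floor on young EDL 7, 8 and 9 (17.9, 14.1 and 17.9), which shrank the young difference. Its ratio of means without a floor, EDL over soleus, was 0.789 in young rats and 0.890 in old rats. The SE and interval hold for the chosen floor and scaling alone.

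miR-494 was lower in EDL of old rats relative to the percentile, by a log2 difference of -1.16 (SE 0.23, interval -1.66 to -0.66, limma adjusted p = 0.000582), but without scaling it was higher in EDL, by 0.53 (limma adjusted p = 0.0340), where 83.5% of tested miRNAs were called. The call in old rats was lost with the percentile over all probes (-0.08) and with normexp background (-1.04, limma adjusted p = 0.124). Its scaled levels were 0.184, 0.162, 0.241 and 0.2003 in old EDL against 0.447, 0.435, 0.390 and 0.475 in old soleus, with no overlap. In young rats the difference was -0.46 (SE 0.23, interval -0.96 to 0.04, limma adjusted p = 0.101) and did not pass, and without scaling it was 0.69 and was called (limma adjusted p = 0.0162), as were 58.3% of tested miRNAs. The scaled levels there were 0.143, 0.217, 0.338 and 0.182 in young EDL against 0.430, 0.275, 0.232 and 0.252 in young soleus, which overlapped. Without young EDL 9 the young difference was -0.69 and was called (limma adjusted p = 0.00890), with 59.1% of tested miRNAs called.

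In old rats both members were called, against 62.6% of 115 tested miRNAs in either direction and 23.5% called lower. In young rats 1 of 2 was called, against 56.5% in either direction and 25.2% called lower. Groups did not overlap for 2 members in old rats and 1 in young rats, against 57.4% and 40% of tested miRNAs. The choice of scaling moved the median difference of all tested miRNAs: without scaling it was 1.63 in old rats and 0.99 in young rats, against 0.19 in old rats and 0.04 in young rats with it. Relative to that median, both members lay below it under the 5 scaling settings, but not under every other alternative. Most of these settings divide whole arrays, which apart from the floor moves a member and the median alike. Over the scaling settings, miR-494 minus the median ran from -1.68 to -1.10 in old rats and from -0.81 to -0.30 in young rats. For miR-409-3p it ran from -2.14 to -1.80 in old rats and from -1.85 to -1.24 in young rats. Outside these ranges, miR-409-3p minus the median was -0.86 in old rats and -0.61 in young rats with a median floor, and -0.60 and -0.48 with normexp. With array brightness as a covariate miR-494 was 0.30 above the median in young rats and at -0.06 from it in old rats, and miR-409-3p was at -0.64 in old rats and -0.85 in young rats. The comparisons at the 2 ages share no array, but they are not independent. Both came from 1 fit with shared scaling, floor and spread, and all EDL arrays lay on 1 slide. The part of array brightness in the muscle differences was not tested, because brightness and muscle largely went together. In old rats every EDL divisor (866 to 1830) exceeded every soleus one (400 to 472). In young rats the divisors overlapped (589 to 1864 for EDL, 290 to 681 for soleus). The dmr_285 spike-in did not overlap there (194 to 804 against 55.9 to 180). The fit with brightness as a covariate is thus only another setting. With it 0 members and 23.5% of tested miRNAs were called in old rats. There miR-494 was at -0.09 and miR-409-3p at -0.67, and in young rats miR-494 turned to 0.27. In young rats miR-409-3p was still called with the covariate, at -0.88 (limma adjusted p = 0.0194), as were 35.7% of tested miRNAs.

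**Figure D4:**
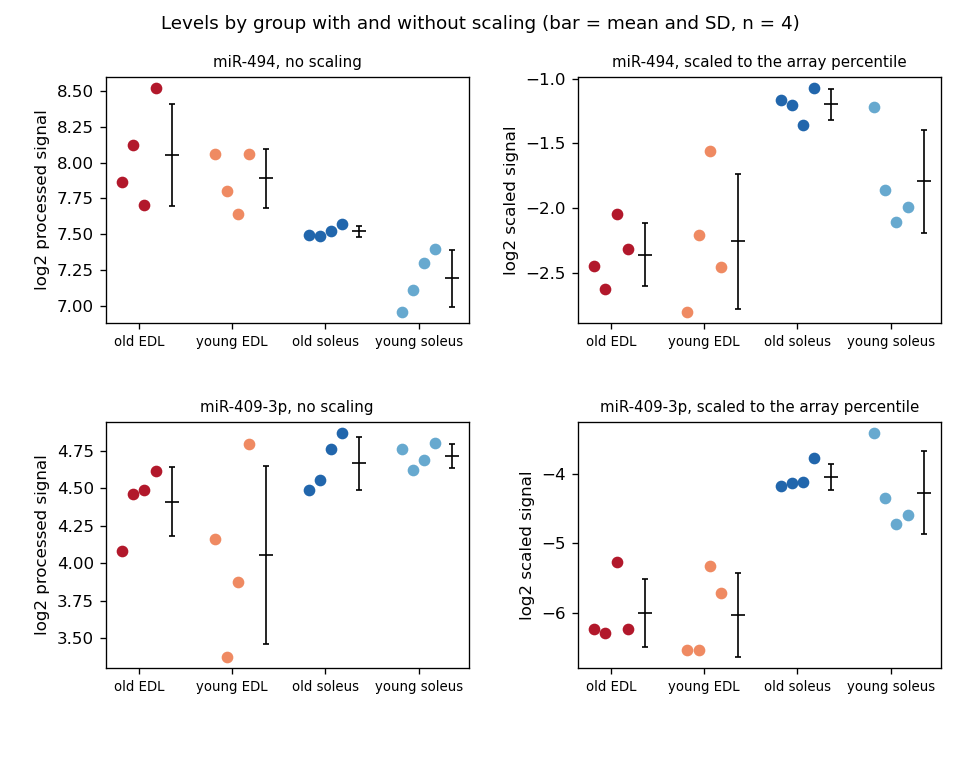
Log2 processed signal without scaling (left) and log2 signal scaled to the array percentile (right) of the representative probe of miR-494 and miR-409-3p on all 16 arrays, by group, with mean and SD (n = 4). For miR-494 the EDL arrays were above the soleus arrays without scaling, and with scaling old EDL was below old soleus while young EDL and young soleus overlapped.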

How the data were processed

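Per the labels' protocols, 0.1 µg of column-purified total RNA was labelled with Cy3. Agilent Feature Extraction gave the spot intensity values, per the file headers in version 10.7.3.1 with protocol miRNA_107_Sep09 and grid build rn4. The value used, the deposited processed signal, is an intensity after that program's own background treatment and can be negative. Scaling between arrays by the authors is not given in the sources used here. The authors' series table held the same intensity values (100% equal).

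Control spots and outlier spots (3.03%) were left out, 0 spots were saturated, and spots of a probe were averaged. Age was fitted within each muscle's 8 arrays (113 miRNAs tested in EDL, 80 in soleus), and the muscles and the interaction on all 16 (115). Divisors came from 139, 99 and 95 probes, and floors, the lowest scaled signal well above background on any array of the fit, were 0.01717, 0.03718 and 0.01083. The brightest probe over a fit stood for a miRNA. In the main setting miR-409-3p had another probe in EDL (A_26_P00001707) than in the other fits (A_26_P00001706). The choice was made anew when the scaling changed, and without scaling the fit of all 16 arrays used A_26_P00001707. Fits without scaling kept a floor too. Tests were two-sided in limma 3.58.1 (R 4.3.3), tested on simulated data; unscaled signals were compared with exact permutation tests (scipy 1.17.1). Tables and plots used Python 3.11.15, pandas 2.3.3, numpy 2.4.6 and matplotlib 3.10.9. The number of arrays limits the precision.

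Members with values on every array were those tested in any fit; any other name was picked after its values were seen. Members, lists and alternatives were chosen with earlier results of these data known. Groups and numbers came from the labels, which do not say that same-numbered samples share a rat. Alternatives covered scaling (percentile over all probes, none, quantile, spike-ins), normexp background (offset 50, on median spot signal, the column present), floor, filter, probe rule, the software's total gene signal, variance trend, a brightness covariate, number blocks and single arrays left out. Array names were matched to RefSeq by stem and arm under current naming; RefSeq sequences were not set against the probes.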

Additional observations from a re-analysis of the deposited data

How the results depend on the processing

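Members called with age in EDL (0) and in the interaction (0) were the same under every alternative. Of all tested miRNAs, from 0 of 113 (as without scaling) to 22 of 113 (as with quantile) were called in EDL. In the interaction from 0 of 115 (as without scaling) to 17 of 115 (spike-in scaling) were. In EDL miR-409-3p was not tested with the stricter filter, or without old EDL 2, 3 or 4 or young EDL 10. With age in soleus the count of 0 became 1 (miR-494) with a stricter filter on dim miRNAs, the brightness covariate and the title-number block. Of all tested miRNAs 19 of 63, 20 of 80 and 28 of 80 were called there, against 10 of 80 in the main setting. The count ran from 0 to 2 with single arrays left out (2 without young soleus 7, with 45 of 80 called). Between muscles in young rats the count of 1 became 0 with the percentile over all probes (67 of 115 tested miRNAs called) and with normexp (5 of 115). It became 2 with spike-in scaling (77 of 115). Without scaling it stayed 1 (67 of 115), but miR-409-3p was lost and miR-494 was called, higher in EDL. The count ran from 1 to 2 with single arrays left out (2 without young EDL 9, with 68 of 115 called). In old rats the count of 2 became 0 with the percentile over all probes (78 of 115 called), normexp (7 of 115) or the brightness covariate (27 of 115). Without scaling it became 1 (96 of 115), miR-494 called higher in EDL. The count was 2 without any single array, where 61 of 112 to 78 of 115 were called. With no filter miR-668 was also called in old rats (76 of 677 called). There 437 of 677 miRNAs had no spread within any group and limma's variance estimate is unreliable.

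Signs turned as follows. With age in EDL, miR-409-3p was 0.15 without scaling, 0.21 with the brightness covariate and 0.024 from the fit of all 16 arrays, and miR-494 was 0.16 without scaling and 0.031 with the covariate. Leaving out single arrays gave -0.36 to 0.19 for miR-409-3p and -0.39 to 0.0094 for miR-494. With age in soleus, miR-409-3p was -0.051 without scaling, -0.16 with the all-probe percentile, -0.087 with spike-in scaling, -0.015 with a median floor and -0.050 with the covariate. In the muscle comparison of young rats miR-494 was 0.69 without scaling, 0.55 with the all-probe percentile and 0.27 with the covariate, and in old rats 0.53 without scaling. In the interaction miR-409-3p was 0.083 without scaling, 0.11 with spike-in scaling, 0.21 with the covariate and -0.58 to 0.038 with single arrays left out. Beyond what fewer arrays or tested miRNAs change by construction, the cause was not tested.

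Members well above background on 2 or more arrays numbered 0 in all 4 groups with every spot of all probes flagged. In each group 1 member, miR-494, was so on all 4 arrays by the main rule, or with every spot of 1 probe. Young EDL had 2 members with any spot flagged, by the software's call, or on 1 or more arrays.

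Same-numbered EDL and soleus samples correlated at -0.71 to 0.57 (4 of 8 pairs over 0.1, 3 of 8 best with their own number). Same-titled old and young samples correlated at -0.30 to 0.69 (5 of 8 over 0.1). In every group the sample numbers also followed the array's row on its slide. The correlations and the number blocks therefore mix array position with any pairing and cannot decide it. As the labels state no pairing, the numbers were not taken as pairs. A replicate block left 1 member called between muscles in young rats, 2 in old rats and 0 in the interaction. Of 115 tested miRNAs 57, 71 and 2 were called there. The title-number block left 0 members called in EDL, against 18 of 113 tested miRNAs.

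Signal over background is the limit: 72 of 74 members had only a bound, so no age or muscle difference was measurable for them.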
